A study of Oryza sativa with 8 samples.

Results

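Smt1-1 encodes a sterol C-24 methyltransferase and CYP90D2 a cytochrome P450 of brassinosteroid synthesis, and their transcript levels were followed over 4 rice lines. They are 2 of the 14661 genes that could be tied to a probe lying in a single gene of the annotation. Both were selected on earlier results of the same arrays, namely their low levels in the male-sterile lines and above all in ZhenShan97A. Their levels in the sterile lines and in the maintainer line, and the place of ZhenShan97A among the sterile lines, are therefore given as a description without a test. Only the difference between D62A and XQZ-A was tested. Each gene has 1 probe (16533646 for Smt1-1, NCBI gene 4342690, and 16382933 for CYP90D2, NCBI gene 4327329).

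The lines are 3 cytoplasmic male-sterile (CMS) lines of indica rice, D62A (D-type cytoplasm), ZhenShan97A (WA type) and XQZ-A (DA type), and the maintainer Meixiang B (MB), the fertile line with which they were repeatedly backcrossed. The sterile lines thus share most of the MB nuclear genome, but what remained of each donor's nuclear genes cannot be told apart from the cytoplasm. By the DNA markers of the study, the MB share of the nuclear genome was smallest in ZhenShan97A. RNA was hybridized to 8 arrays, 2 per line, taken at the stage of the uninucleate microspore. The labels name young panicles as the tissue and the methods of the study name anthers. The study calls the arrays biological replicates and gives no further account of how they arose, so that p-values measure only the spread between these arrays. The names D62A and XQZ-A are used as the array labels give them, although the fold changes printed by the study match the arrays only with these names exchanged, for both genes and for nearly the whole of its table. Of the 620 rows of that table, 588 fit the arrays after the exchange and 2 as labelled, within 0.005 log2 units. Which arrays are of the D type and which of the DA type is therefore in doubt for every gene given below. Values for ZhenShan97A, for MB and for the mean of the CMS lines are untouched by such an exchange, and the sign of D62A minus XQZ-A would turn.

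Plants make a mixture of sterols, which stiffen membranes and feed the synthesis of a hormone. Sterol methyltransferase 1 adds the first methyl group to the side chain of cycloartenol, the entry to the plant sterols, and the related methyltransferase 2 adds the second, which turns the flow from campesterol to sitosterol. Campesterol is the precursor of brassinosteroids, growth hormones that are built by cytochrome P450 enzymes of the CYP90, CYP85 and CYP724 families, inactivated by CYP734 enzymes and perceived at the cell surface by the receptor kinase BRI1. In rice, loss of CYP90D2 gives a dwarf with erect leaves, and brassinosteroid mutants of other plants have disturbed pollen and tapetum.

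Smt1-1 was lower in each CMS line than in MB, and lowest in ZhenShan97A. Its signal intensity on the arrays of replicate 1 and 2 was 28.7 and 42.2 in D62A, 15.2 and 16.7 in ZhenShan97A, 26.3 and 31.8 in XQZ-A, and 66.4 and 76.8 in MB. No CMS array reached the lower MB array, and the ranges of D62A and XQZ-A overlapped while those of the other neighbours in the order did not. The order was ZhenShan97A, XQZ-A, D62A and MB in both replicate numbers. The line means were 35.4 ± 9.49 in D62A, 15.9 ± 1.09 in ZhenShan97A, 29.0 ± 3.91 in XQZ-A and 71.6 ± 7.31 in MB (SD, n = 2 each). Differences are given as log2 ratios after intensities below 16, where the arrays carry little signal, were set to 16. One CMS array, ZhenShan97A replicate 1, lay below that floor. ZhenShan97A replicate 2, at 16.7, lay barely above it and below the median of 19.2 over all probes of that array. The difference in this line is thus one to the floor, or close to it, in both of its arrays.

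CYP90D2 had the same order of lines, with a wider gap between the replicate numbers. Its signal intensity was 37.7 and 91.0 in D62A, 19.2 and 44.3 in ZhenShan97A, 34.2 and 82.3 in XQZ-A, and 58.4 and 109.6 in MB. Replicate 2 was at least as bright as replicate 1 in every line for both genes, and for CYP90D2 this gap exceeded that between D62A or XQZ-A and MB, so that over single arrays only ZhenShan97A and MB did not overlap. Within each replicate number the order was again ZhenShan97A, XQZ-A, D62A and MB. The line means were 64.4 ± 37.7 in D62A, 31.8 ± 17.8 in ZhenShan97A, 58.3 ± 34.0 in XQZ-A and 84.0 ± 36.2 in MB (SD, n = 2 each). All 8 arrays lay above the floor. Because arrays of one number resembled each other across all lines, differences are also given within each number.

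**Figure D1:**
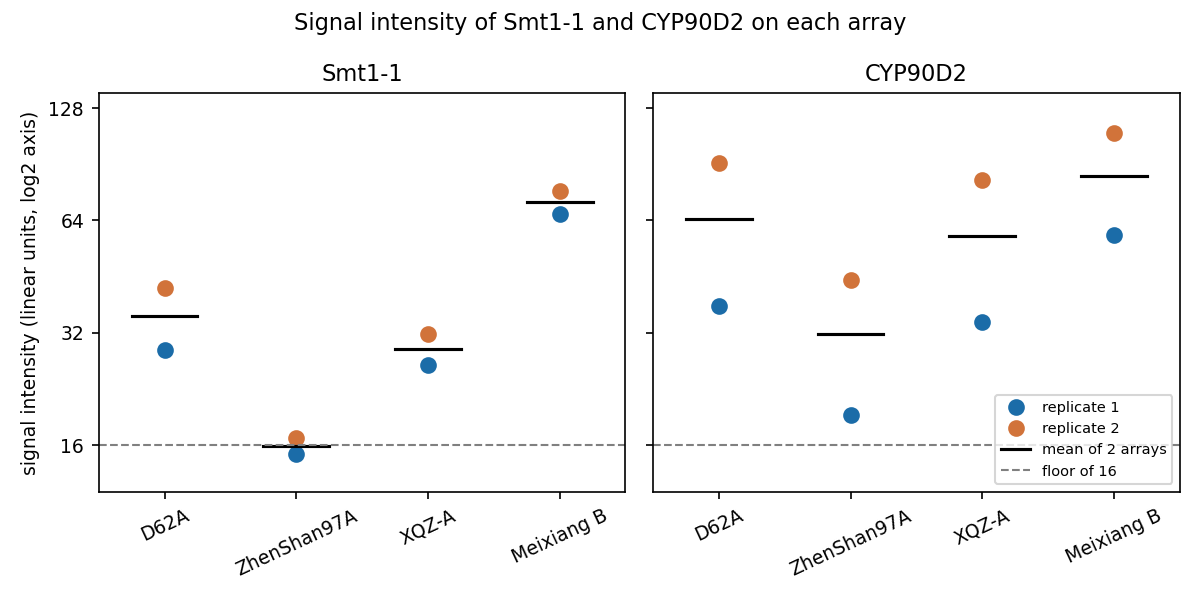
Signal intensity (log2 axis) of Smt1-1 (left) and CYP90D2 (right) on the 8 arrays, by line, with replicate 1 in blue, replicate 2 in orange, the mean of 2 arrays as a bar and the floor of 16 as a dashed line. ZhenShan97A is lowest and MB highest in both colours, and 15.2 for Smt1-1 in ZhenShan97A is the single value below the floor.

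Measured against MB, Smt1-1 was 2.05-fold lower in D62A, 4.37-fold lower in ZhenShan97A and 2.47-fold lower in XQZ-A. The log2 difference was -1.04 in D62A (-1.21 within replicate 1 and -0.87 within replicate 2). In ZhenShan97A, where both arrays lay at or near the floor, it was -2.13 (-2.05 and -2.20), and in XQZ-A -1.31 (-1.34 and -1.27). These 3 differences have a standard error (SE) of 0.32 from the fit of all arrays by line and of 0.15 when the replicate number was added as a block. Averaged over the 3 CMS lines the log2 difference was -1.49 (-1.53 and -1.45). All 3 comparisons rest on the same 2 arrays of MB.

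For CYP90D2 the differences from MB were smaller. It was 1.37-fold lower in D62A, 2.74-fold lower in ZhenShan97A and 1.51-fold lower in XQZ-A. The log2 difference was -0.45 in D62A (-0.63 within replicate 1 and -0.27 within replicate 2), -1.45 in ZhenShan97A (-1.60 and -1.31) and -0.59 in XQZ-A (-0.77 and -0.41). When 1 array was left out and the block was not used, the difference in D62A became 0.19 without D62A replicate 1 and 0.0 without MB replicate 2, and that in XQZ-A 0.04 without XQZ-A replicate 1. In ZhenShan97A it was -0.85 without ZhenShan97A replicate 1 and -2.06 without ZhenShan97A replicate 2. The lowest such values in the other lines were -1.08 in D62A and -1.23 in XQZ-A, each without that line's replicate 2. The SE of each was 0.71 without the block and 0.15 with it, the gap being the difference between replicate numbers described above. Averaged over the 3 CMS lines it was -0.83 (-1.0 and -0.66), and leaving out MB replicate 2 gave -0.38, leaving out MB replicate 1 -1.29. With the block the CMS average stayed between -1.0 and -0.66 when arrays were left out.

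Both genes stood below MB in each CMS line within each replicate number. Of the 20416 probes of higher mean intensity, 11.0% had each of the 6 CMS arrays below the MB array of its number. A gap between every CMS array and both MB arrays, which Smt1-1 had, was found in 3.76% of these probes. ZhenShan97A was lowest and MB highest in both numbers in 1.51% of them, and ZhenShan97A was lowest in both numbers in 7.2%. These patterns were used in choosing the genes, and nothing is read from their rarity. The median of all these probes was within 0.021 log2 units of 0 in each comparison.

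Among the CMS lines, ZhenShan97A was lower than the mean of D62A and XQZ-A for both genes. The log2 difference was -0.96 for Smt1-1 (-0.78 within replicate 1 and -1.13 within replicate 2) and -0.93 for CYP90D2 (-0.90 and -0.97). For Smt1-1 it was -0.68 after quantile normalization and -0.10 when the floor was raised to 32, above all but 1 of the CMS arrays. For CYP90D2 it was -0.97 and -0.57 under these settings. When 1 array was left out without the block, the CYP90D2 difference was -0.33 without ZhenShan97A replicate 1, -1.54 without ZhenShan97A replicate 2 and -0.62 without replicate 2 of D62A or XQZ-A, and with the block it stayed between -0.97 and -0.90. D62A and XQZ-A could not be separated for either gene. The log2 difference of D62A minus XQZ-A was 0.27 for Smt1-1 (SE 0.32, 95% interval -0.50 to 1.04, limma adjusted p = 1.0) and 0.14 for CYP90D2 (SE 0.71, 95% interval -1.57 to 1.85, limma adjusted p = 1.0). With the replicate number as a block the intervals narrowed to -0.10 to 0.63 for Smt1-1 (limma adjusted p = 0.512) and -0.20 to 0.49 for CYP90D2 (limma adjusted p = 0.74). Leaving out D62A replicate 2 without the block turned the sign to -0.01 for Smt1-1 and -0.49 for CYP90D2, as XQZ-A replicate 1 did for CYP90D2. D62A was the higher of both lines in both replicate numbers, by 0.13 and 0.41 for Smt1-1 and by 0.14 and 0.15 for CYP90D2.

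**Figure D2:**
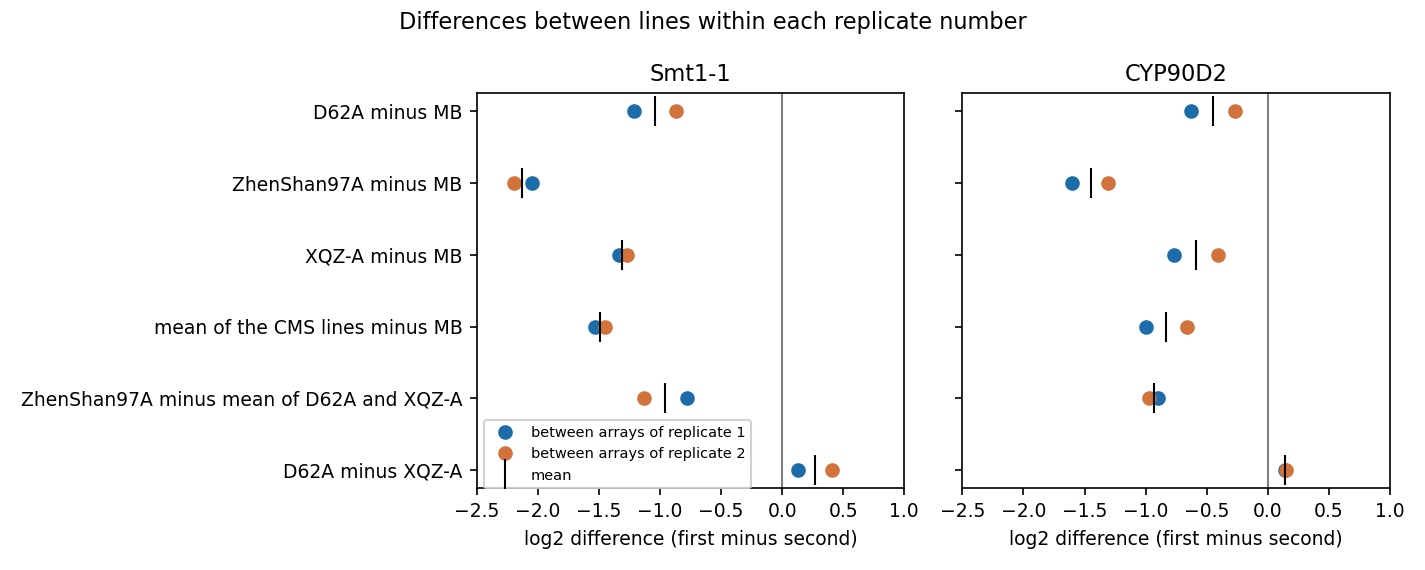
Log2 differences between lines (first minus second) for Smt1-1 (left) and CYP90D2 (right), with points for the arrays of replicate 1 (blue) and replicate 2 (orange) and a bar for their mean. The ZhenShan97A minus MB means, -2.13 and -1.45, lie farthest to the left, and the D62A minus XQZ-A means, 0.27 and 0.14, lie nearest to 0.

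The cell types of the sample bear on these values, since in RNA of a whole organ fewer cells of a type and less RNA per cell cannot be told apart. Of 13 listed tapetum genes, the cell layer that feeds the pollen, 8 had a probe and 3 were above the floor on all arrays, while UDT1, an early tapetum regulator, was at the floor on all. The summed intensity of these 8 probes was 347 to 613 in D62A, 303 to 711 in ZhenShan97A, 257 to 391 in XQZ-A and 1292 to 3700 in MB. This sum was led by C6 and C4, 2 of the 3 genes above the floor on all arrays. GAMYB, the other of these, had 150 and 209 in D62A, 188 and 276 in ZhenShan97A, 168 and 189 in XQZ-A, and 168 and 188 in MB, and its CMS and MB ranges overlapped. All 5 lemma and palea MADS-box genes were above the floor on all arrays, with sums of 800 to 1171 in D62A, 837 to 1292 in ZhenShan97A, 748 to 1070 in XQZ-A and 943 to 963 in MB. Of 3 meiosis genes with a probe, 2 were at the floor throughout, and the sum of the 3 was at most 47.6 on any array. The sum of 3 green tissue genes, 82.8 to 292 in the CMS lines and 104 to 344 in MB, differed mainly by replicate number. The sum of 2 lodicule and stamen genes was 201 to 426 in the CMS lines and 398 to 843 in MB, and that of 2 carpel and ovule genes was 25.2 to 72.6 in the CMS lines and 46.9 to 100.1 in MB. The part of the tissue make-up in the levels of Smt1-1 and CYP90D2 was not tested.

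Part of the rest of the pathway was followed through 36 genes of sterol synthesis, brassinosteroid synthesis and inactivation, and brassinosteroid signalling, 27 of which had a probe. The fit took the 20416 probes of higher mean intensity, the lowest mean being 14.89, below the floor of 16. Beside Smt1-1 and CYP90D2, 18 of the genes with a probe entered it. Of these, 2 were of sterol synthesis, 3 of brassinosteroid synthesis and inactivation, and 13 of signalling. The 3 were CYP724B1 and the inactivating enzymes CYP734A2 and CYP734A4. CYP724B1 was above the floor on 3 of the 8 arrays and entered the fit only through its XQZ-A arrays. MADS55, of signalling, was above the floor on 1 array and entered only through that MB array. Only 3 of 18 sterol entries of the list were found in the annotation, so most steps of sterol and brassinosteroid synthesis were not measured. A gene was called where limma gave an adjusted p under 0.01 with a 2-fold or larger difference. Without the block, limma called 0 of the 18 in each of the 6 comparisons, and 0.0% of all probes as well. At an unadjusted p under 0.05 it gave 2 of the 18 in D62A (3.09% of all probes), 1 in ZhenShan97A (5.72%), 3 in XQZ-A (4.55%) and 1 in the average of the CMS lines (5.49%), each against MB. Among the CMS lines it gave 0 of the 18 in ZhenShan97A against the others (2.79%) and 0 in D62A against XQZ-A (1.21%). CYP724B1 was 1 of the 3 in XQZ-A against MB.

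With the block, 2 of the 18 were called lower in XQZ-A (1.75% of all probes), 1 lower in the average of the CMS lines (1.43%), and 0 lower in D62A (0.0294%) and ZhenShan97A (0.779%). None was called higher, against 0.309% of all probes in XQZ-A, 0.372% in the average of the CMS lines and 0.852% in ZhenShan97A. These calls were lost when any array of ZhenShan97A or XQZ-A, or replicate 2 of MB, was left out, and with the block over all probes or after quantile normalization. At the laxer limit of an adjusted p under 0.05 with no limit on the fold, added after the data were seen, Smt2-1 and MADS22 were lower in D62A (2 of 18, beside 2.33% of all probes lower and 1.24% higher). Smt2-1, SMOS1 and MADS22 were lower in ZhenShan97A, in XQZ-A and in the average of the CMS lines (3 of 18 in each, beside 4.48%, 5.25% and 5.51% of all probes). HMG1 was higher in ZhenShan97A and CYP724B1 in XQZ-A (1 of 18 in each, beside 8.07% and 1.93%). CYP724B1 entered the fit only through XQZ-A, so nothing is read from its difference there. In the average of the CMS lines 0 of 18 were higher (5.04%). Among the CMS lines, MADS22 was higher in ZhenShan97A than in the others (1 of 18, beside 2.91% of all probes higher and 0.309% lower). With the block over all probes, 0 of these differences kept an adjusted p under 0.05 from limma (0.0621 to 0.359). Over the 18 genes the median log2 difference of the CMS average from MB was -0.12, with 10 below 0 and 8 above, beside 0.01 over all probes. The 10 include MADS55, which rests on 1 MB array. The sign differed between replicate numbers for BKI1 and IBH1 among the 10 and for RGA1 among the 8. The share of all probes below 0 was not counted, so nothing is read from these counts.

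Smt2-1, the other sterol methyltransferase of the list, was matched by its symbol, which names an enzyme of the next methylation step. The annotation also lists the name ArsM1 for this gene. Its intensity was 28.8 and 66.4 in D62A, 21.9 and 52.1 in ZhenShan97A, 22.4 and 54.5 in XQZ-A, and 45.4 and 100.4 in MB. It was below MB in each CMS line within both numbers and ranked ZhenShan97A, XQZ-A, D62A and MB, the order of Smt1-1. In the fit with the block its log2 difference from MB was -1.0 in ZhenShan97A (SE 0.12, limma adjusted p = 0.00786), -0.95 in XQZ-A (limma adjusted p = 0.00762) and -0.86 in the average of the CMS lines (SE 0.10, limma adjusted p = 0.00522), each short of the 2-fold limit. In D62A the difference was -0.63 (limma adjusted p = 0.0475). Without the block no difference of Smt2-1 passed (limma adjusted p = 1.0 in each), nor did any with the block over all probes (limma adjusted p = 0.0621 in ZhenShan97A, 0.0796 in XQZ-A, 0.065 in the CMS average and 0.178 in D62A). For Smt2-1 the difference of ZhenShan97A from the mean of D62A and XQZ-A was -0.21 (limma adjusted p = 0.316 with the block). Smt1-1 was chosen with this contrast in view, and the contrast was not tested between the genes.

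HMG1, an HMG-CoA reductase of the mevalonate pathway that supplies sterol carbon, ran the other way. Its intensity was 31.2 and 45.0 in D62A, 38.1 and 81.1 in ZhenShan97A, 28.0 and 31.8 in XQZ-A, and 25.8 and 23.5 in MB. ZhenShan97A, lowest in Smt1-1, was highest in HMG1 in both replicate numbers. The log2 difference from MB was 1.18 in ZhenShan97A (0.56 and 1.79, limma adjusted p = 0.0372 with the block, 0.359 with the block over all probes and 0.817 without the block), 0.61 in D62A and 0.28 in XQZ-A.

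Among the enzymes of brassinosteroid synthesis, CYP724B1, an early hydroxylase of the side chain, was above the floor in both XQZ-A arrays (27.7 and 25.3) and in 1 of 2 D62A arrays (14.8 and 20.9). It was below the floor in ZhenShan97A (10.4 and 10.7) and MB (13.3 and 9.92). Its log2 difference of XQZ-A from MB was 0.73 (limma adjusted p = 0.0422 with the block and 0.297 with the block over all probes), counted from the floor. Because CYP724B1 entered the fit only through its XQZ-A arrays, nothing is read from this difference. CYP90A4 and CYP90B2, the other CYP90 genes with a probe, had at most 10.8 on any array, below the floor, and say nothing about these lines.

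Of the inactivating enzymes, CYP734A4 did not mirror CYP90D2. CYP734A4 had 188 and 412 in D62A, 361 and 434 in ZhenShan97A, 262 and 354 in XQZ-A, and 343 and 424 in MB. The CYP734A4 level in ZhenShan97A was close to that in MB (log2 difference 0.05), and D62A and XQZ-A were below MB in both numbers (-0.45 and -0.32), none of which passed (limma adjusted p from 0.314 to 0.896 with the block). CYP734A2 differed by -0.37 in the average of the CMS lines (-0.05 within replicate 1 and -0.69 within replicate 2, limma adjusted p = 0.235 with the block). On the arrays of replicate 1 it lay near the floor in every line, between 14.4 and 18.4. In ZhenShan97A its difference from MB changed sign between the numbers (0.06 and -0.82). CYP734A5 was above the floor on the arrays of replicate 2 only.

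Of the 13 signalling genes in the fit, MADS22, MADS55 and SMOS1 lay farthest below MB, and MADS22 and SMOS1 were those called with the block. MADS22, a MADS-box factor of the SVP group that restrains brassinosteroid responses in rice, had 48.4 and 71.8 in D62A, 57.6 and 128.1 in ZhenShan97A, 28.9 and 35.6 in XQZ-A, and 151.1 and 252.5 in MB. No CMS array reached MB, and XQZ-A was lowest in both numbers, with ZhenShan97A highest of the CMS lines. With the block its log2 difference from MB was -2.61 in XQZ-A (SE 0.21, limma adjusted p = 0.0017) and -1.84 in the average of the CMS lines (SE 0.17, limma adjusted p = 0.00253), against adjusted p of 0.38 and 0.44 from limma without the block and 0.126 and 0.13 with the block over all probes. In D62A the difference was -1.73 (limma adjusted p = 0.0139 with the block) and in ZhenShan97A -1.19 (limma adjusted p = 0.0177 with the block). ZhenShan97A, lowest of the lines in Smt1-1 and CYP90D2, was thus the highest CMS line in MADS22. MADS55, of the same group, was above the floor on 1 array only, MB replicate 2 (90.5), and MADS47 on none.

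SMOS1, an AP2-type factor of organ size that acts with a brassinosteroid response regulator in rice, had 31.95 and 54.3 in D62A, 19.3 and 40.8 in ZhenShan97A, 15.3 and 29.4 in XQZ-A, and 53.2 and 65.4 in MB. XQZ-A was lowest and MB highest in both numbers. With the block its log2 difference from MB was -1.44 in XQZ-A (SE 0.20, limma adjusted p = 0.00854, against 0.972 without the block and 0.211 with the block over all probes), -1.07 in ZhenShan97A (limma adjusted p = 0.0204) and -0.50 in D62A (limma adjusted p = 0.208). In XQZ-A replicate 1 SMOS1 lay below the floor.

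The receptor BRI1 was not low in the CMS lines. It had 83.9 and 86.0 in D62A, 47.6 and 32.5 in ZhenShan97A, 67.2 and 29.9 in XQZ-A, and 48.3 and 22.3 in MB. Its log2 difference from MB was 1.37 in D62A, where both arrays stood above both MB arrays (0.80 and 1.95, limma adjusted p = 0.054 with the block), 0.26 in ZhenShan97A and 0.45 in XQZ-A. The kinases GSK1 and GSK2, which hold the hormone's response in check, were below MB in each CMS line in both numbers, by small amounts that did not pass (-0.38 and -0.44 in the average of the CMS lines, limma adjusted p = 0.0682 and 0.0554 with the block). For the co-receptor BAK1 and the transcription factor BZR1 the differences from MB were 0.02 to 0.27 in each line. BZR1 lay below the floor in replicate 1 of ZhenShan97A (9.1), XQZ-A (14.1) and MB (12.75). Its differences within replicate 1 are therefore counted from the floor.

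**Figure D3:**
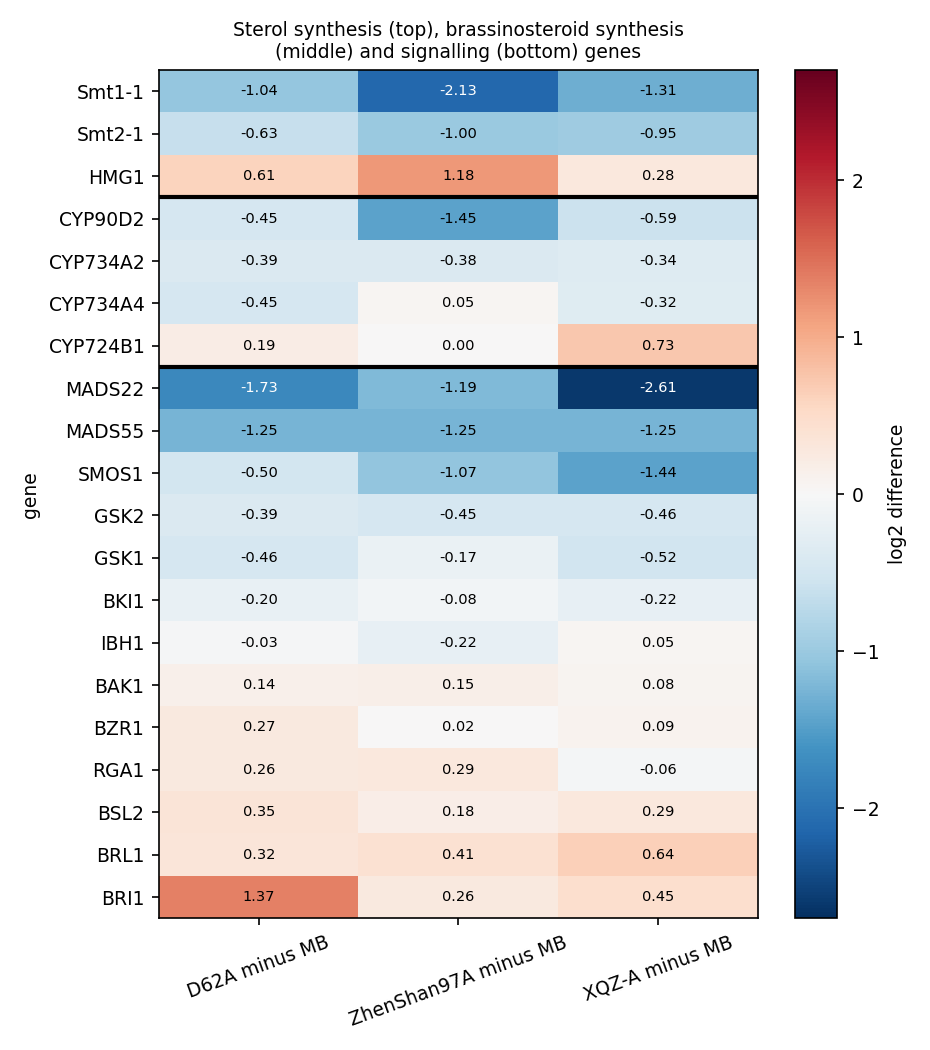
Log2 difference of D62A, ZhenShan97A and XQZ-A from MB (columns, mean of 2 arrays per line) for Smt1-1, CYP90D2 and the 18 list genes in the fit (rows, in 3 blocks divided by lines), blue below MB and red above. Smt1-1 and CYP90D2 are deepest in ZhenShan97A (-2.13 and -1.45), MADS22 and SMOS1 in XQZ-A (-2.61 and -1.44), and MADS55 at -1.25 in every column rests on 1 MB array.

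Likeness to each gene was measured as Pearson's r over the 8 arrays after each replicate number was centred, among 1472 other genes with a symbol, and is given as a description since the arrays share lines and numbers. Nearest to Smt1-1 were OsTPP8, a trehalose-phosphate phosphatase (r = 0.979), APX6, an ascorbate peroxidase (0.975), IAA2, of the auxin response repressors (0.962), AGO1B, an argonaute (0.962), and CYP90D2 itself (0.954). Smt1-1 and CYP90D2 were both chosen for low levels in the CMS lines and above all in ZhenShan97A. Nothing is therefore read from their likeness to each other. Without centring r stayed at 0.974 for APX6 and 0.936 for AGO1B, and was 0.764 for CYP90D2 and 0.339 for IAA2, whose arrays of replicate 2 were much brighter. OsTPP8 had 50.5 and 116 in D62A, 44.5 and 64.4 in ZhenShan97A, 57.3 and 91.0 in XQZ-A, and 89.8 and 148 in MB, so that ZhenShan97A was lowest and MB highest in both numbers. APX6 (10.7) and IAA2 (13.9) lay below the floor in ZhenShan97A replicate 1, as Smt1-1 did, and each was set to 16 there. APX6 was also barely above the floor in ZhenShan97A replicate 2 (16.7). The floor thus enters the likeness of APX6 and IAA2 to Smt1-1.

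Nearest to CYP90D2 were EXPB4, a beta-expansin (r = 0.955), Smt1-1 (0.954), GLB (0.933), COI1B, of the jasmonate receptor family (0.929), and EXP7, an alpha-expansin (0.925). The 2 expansins belong to families that loosen cell walls. EXPB4 had 286 and 794 in D62A, 117 and 217 in ZhenShan97A, 207 and 465 in XQZ-A, and 371 and 808 in MB, a log2 difference of -1.78 in ZhenShan97A against -0.20 in D62A and -0.82 in XQZ-A. EXP7 differed from MB by -1.51 in ZhenShan97A, -0.58 in D62A and -1.01 in XQZ-A. Both expansins thus shared with CYP90D2 a lowest level in ZhenShan97A, which is what the measure of likeness selects.

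**Figure D4:**
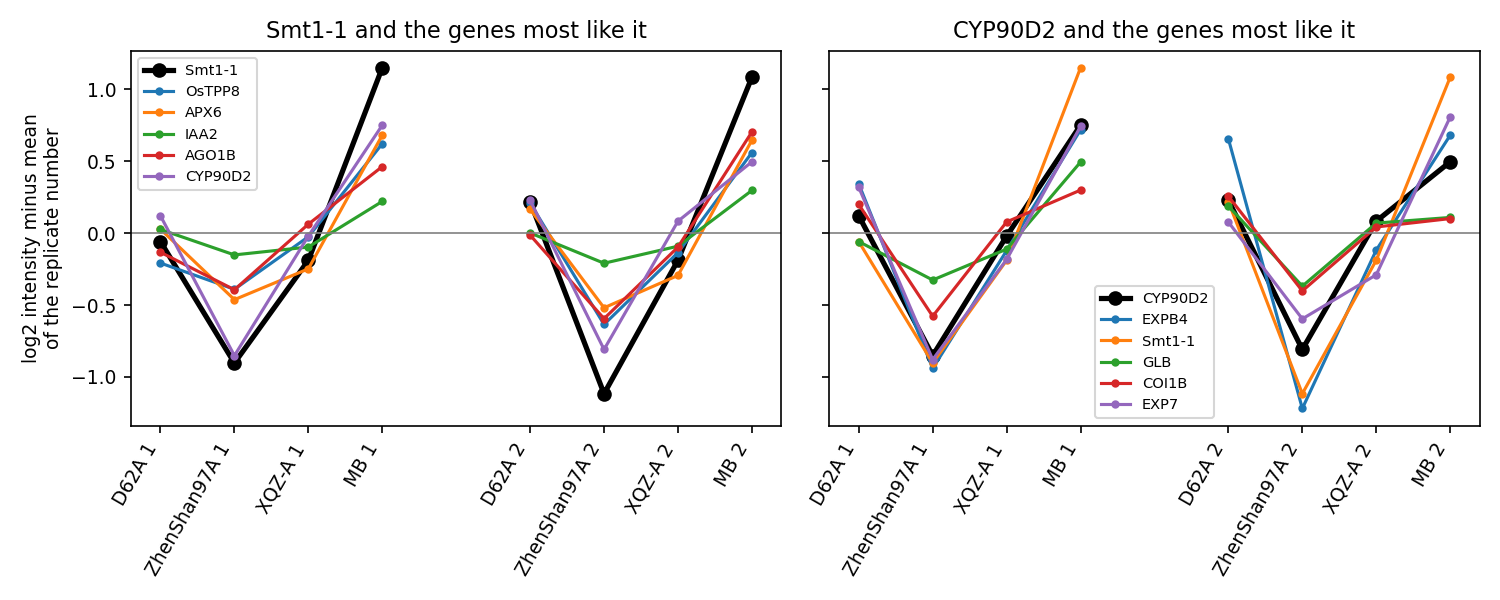
Log2 intensity minus the mean of its replicate number, for Smt1-1 (left) and CYP90D2 (right) in black with the 5 genes most like each in colour, over the arrays of replicate 1 and then of replicate 2. Every profile is lowest in ZhenShan97A in both replicate numbers, and IAA2, with r = 0.962, follows Smt1-1 over a smaller range.

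The genes lying beside Smt1-1 and CYP90D2 on their chromosomes differed in various directions. Within 100 kb, 9 genes near Smt1-1 had a probe and 7 of them entered the fit, with log2 differences of the CMS average from MB between -0.73 and 0.38 and of ZhenShan97A from the mean of D62A and XQZ-A between -0.28 and 0.40. Near CYP90D2 these ranges were -0.35 to 0.81 and -0.61 to 0.82 over 6 of 7 genes. In both places 0 genes differed by 2-fold or more in these comparisons. The share of all probes that did so was not counted, and nothing is read from this about either place. In single lines some of the neighbours named below did differ from MB by 2-fold or more. LOC4342680 and LOC4342683, near Smt1-1, were below MB in each CMS line, with log2 differences of -0.73 and -0.63 for the CMS average (limma adjusted p = 0.0277 and 0.0468 with the block, 1.0 for both without). At a limma adjusted p under 0.05 with the block, 5.51% of all probes were lower in the CMS average. LOC4327331, near CYP90D2, differed from MB by -0.57 in D62A, -0.76 in ZhenShan97A and 0.29 in XQZ-A. LOC4327325, also near CYP90D2, lay above MB, by 0.41 in D62A, 1.36 in ZhenShan97A and 0.67 in XQZ-A. LOC4327338, on its other side, differed by 1.36 in D62A, 0.06 in ZhenShan97A and -0.08 in XQZ-A. The neighbours named here were picked after their values were seen.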

How the data were processed

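The table deposited by the authors gives a linear signal intensity for each of 40832 probes. Per the labels MAS5 was used, while the methods of the study name Robust Multichip Analysis with log transformation. No version is given in the sources used here. The 4 arrays of replicate 1 had medians of 7.65 to 8.15 and those of replicate 2 had 19.2 to 20.6, and 42.5% to 65.2% of the probes of an array lay at or below 16. A second deposited table held 98 more control probe sets and was otherwise equal (largest difference 0). A table of the study's own fold changes was set against the arrays only to check the names of the lines, and gave no other value.

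Every intensity under 16 was raised to 16 before log2 was taken. A linear model with 1 coefficient for each line was fitted with limma (version 3.58.1, R 4.3.3) to the 20416 probes of higher mean, with moderated variances, and p-values were adjusted over those probes by the Benjamini-Hochberg method. The threshold for a call was 0.01 for the adjusted p together with a 2-fold difference. Tables and figures were made with Python 3.11.15. The scripts were tested on simulated data. In these, changes were planted only in probes brighter than Smt1-1 and CYP90D2, and only the CMS average against MB was scored. That test therefore does not cover the range of Smt1-1, CYP90D2 and the dimmer list genes. The deviations of arrays with the same replicate number correlated by 0.728 to 0.839 in 6 of 6 pairs of lines, so the numbers were taken to pair the arrays, and the fit was repeated with the number as a block. The labels give no meaning for the number.

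Probes were tied to genes through a RefSeq table used only for names and neighbours, and no coordinates are given (15295 probes in 1 gene, 436 in several, 25101 in none). The brightest probe represents a gene. List genes were matched by symbol or synonym, genes of another meaning under the same symbol were left out, and 29 of 49 list entries were found. Genes named are Smt1-1 and CYP90D2, the list genes with a probe and the 5 genes with a symbol most like each. Genes within 100 kb are given as counts and ranges, with some named after their values were seen. Members and lists were chosen with earlier results of these data known. Sequences were not used here, so the planned promoter search was not run. Alternatives were quantile normalization, a floor of 32, 1 added in place of a floor, all probes, the mean of probes, a mean-variance trend, the methods' t-test, the block and leaving out each array.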

Additional observations from a re-analysis of the deposited data

Results flagged for a closer look

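MADS22 differed among the CMS lines: ZhenShan97A was higher than the mean of D62A and XQZ-A by 0.98 on the log2 scale (0.62 within replicate 1 and 1.34 within replicate 2, limma adjusted p = 0.039 with the replicate number as a block, 0.352 with the block over all probes and 1.0 without the block). At this threshold, an adjusted p under 0.05, limma with the block called 2.91% of all probes higher and 0.309% lower in the same comparison. CYP734A4 had small differences of opposite sign between lines, none of which passed: both ZhenShan97A arrays lay above the MB array of their number (mean log2 difference 0.05), and both D62A arrays (-0.45, with -0.04 within replicate 2) and both XQZ-A arrays (-0.32) lay below it. That difference between the lines' changes was not tested as such. With 2 arrays per line, no array could be judged to stand apart from its group.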

How the results depend on the processing

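Smt1-1 lay below MB in each CMS line, and lower in ZhenShan97A than in the mean of D62A and XQZ-A, under every setting tried, although with a floor of 32 ZhenShan97A and XQZ-A were equal (-1.16 from MB in both). Its difference in ZhenShan97A from MB was -1.89 after quantile normalization, and the floor of 32 gave -1.09 in the CMS average. ZhenShan97A minus the other CMS lines was -0.68 and -0.10 for Smt1-1 under these settings, since a floor of 32 hides nearly all CMS arrays. Leaving out 1 array at a time moved Smt1-1 in D62A minus MB between -1.31 and -0.76, without D62A replicate 2 and 1. D62A minus XQZ-A turned its sign for Smt1-1 (-0.01 to 0.55, below 0 without D62A replicate 2) and for CYP90D2 (-0.49 to 0.78, below 0 without D62A replicate 2 or XQZ-A replicate 1). With the replicate block these ranges were 0.08 to 0.45 and 0.07 to 0.22. CYP90D2 in D62A minus MB ranged from -1.08 to 0.19 (above 0 without D62A replicate 1) and in XQZ-A minus MB from -1.23 to 0.04 (above 0 without XQZ-A replicate 1) when arrays were left out without the block, and from -0.62 to -0.28 and from -0.76 to -0.42 with the replicate block, which compares arrays of a pair. For CYP90D2 the ranges without the block were -2.06 to -0.85 in ZhenShan97A minus MB, -1.29 to -0.38 in the CMS average and -1.54 to -0.33 in ZhenShan97A minus the other CMS lines. The replicate block raised the list genes called from 0 to 2 in XQZ-A minus MB and to 1 in the CMS average. With the block and an adjusted p under 0.05 and no fold limit, a setting chosen after seeing the data, 2 were called in D62A, 4 in ZhenShan97A, 4 in XQZ-A and 3 in the CMS average, each minus MB, and 1 in ZhenShan97A minus the other CMS lines, and 0 of these held with all probes (limma adjusted p from 0.0621 to 0.359). CYP724B1, among the 4 in XQZ-A, entered the fit only through that line's arrays. Leaving out arrays with the block, also added later, gave 0 to 1 in D62A, 0 to 1 in ZhenShan97A, 0 to 2 in XQZ-A and 0 to 1 in the CMS average, with calls only without MB replicate 1, D62A replicate 1 or D62A replicate 2. With the block, quantile normalization or all probes gave 0 calls in each comparison, and so did the methods' t-test after adjustment. The causes were not tested. The precision of every value is limited by the small number of arrays.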
